A study of Homo sapiens with 31 samples.

Results

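Moderate XIAP knockdown (KD) was examined in NALM-6 cells as the comparison of EF1a/sh-XIAP with EF1a/sh-CTRL at days 10 and 13 after lentiviral transduction. The libraries were chosen by their labels alone, which gave 11 of the 31 samples of the series: 5 with EF1a/sh-XIAP (2 at day 10, 3 at day 13) and 6 with EF1a/sh-CTRL (3 at each day). NALM-6 is an established line of B-cell precursor acute lymphoblastic leukemia (ALL). Both groups carried the same vector type, in which the EF1a promoter drives dsRED with the shRNA in a miR30 backbone. According to the study's methods, the control shRNA was directed at eGFP, and the cells were sorted before RNA extraction. The study's description of the vectors places sh-CTRL in cells marked with mTagBFP and sh-XIAP in cells marked with eGFP, so the marker colour and the shRNA cannot be told apart where this pairing was used. The labels of the samples keep the cells in culture, whereas the general description of the series has them taken from mouse marrow; the sample labels were followed. RNA was measured by prime-seq, a bulk form of SCRB-seq that reads the 3′ end of transcripts and in which each molecule carries an identifier (UMI), so that its PCR copies count once. Nothing in the labels says whether replicates were separate cultures, and p-values therefore measure the spread between these samples only, which may be technical. The question put to these data was which protein-coding genes and pathways differed between sh-XIAP and its control, and how large a difference could have gone unseen.

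XIAP is an inhibitor of apoptosis protein (IAP) that binds and blocks caspases, the proteases that carry out apoptosis, among them the initiator caspase CASP9. DIABLO (SMAC) and HTRA2, released from mitochondria, displace caspases from XIAP, and SMAC mimetics copy this action. XIAP also carries a RING ubiquitin ligase domain through which it takes part in NOD2 and RIPK2 signalling to NF-kB.

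The transcript sequence that sh-XIAP.1, the hairpin named in the study's methods, can pair with over its seed (guide bases 2 to 8) is shown because it defines the knockdown. It lies in the 3′ UTR of XIAP, in exon 7 of 7, at chrX:123907423-123907444 on the plus strand of GRCh38 (GENCODE 29), and is shared by 3 XIAP transcripts. The capitals mark the bases opposite the seed, and the letters come from the reference transcripts.
XIAP target region: gaagcatcatactaTAACTGAa
The annotated 3′ ends, from which prime-seq reads, lie between 6521 and 6535 bases downstream of this site.

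Total UMIs ranged from 315055 to 1048088 with EF1a/sh-XIAP (median 482464) and from 441383 to 774669 with EF1a/sh-CTRL (median 578418.5), and between 15160 and 18906 genes had at least 1 UMI. The shallowest library was EF1a/sh-XIAP day 10 replicate 2, followed by EF1a/sh-XIAP day 10 replicate 1 with 433992 UMIs, and the deepest was EF1a/sh-XIAP day 13 replicate 3. At day 10 every sh-XIAP library was therefore shallower than every control, so construct and depth cannot be told apart at that day. In a principal component analysis EF1a/sh-XIAP day 10 replicate 2 stood apart on component 1 (16.5% of the variance) and EF1a/sh-XIAP day 10 replicate 1 on component 2 (12% of the variance), so both sh-XIAP libraries of day 10 stood away from the other 9. The study's methods left out samples as outliers of such an analysis without naming them. The replicate numbers of the series have gaps, among them 1 in EF1a/sh-XIAP at day 10. The samples left out by the study may therefore already be absent from the counts, which the sources do not state. No further sample was left out here. All 15 B-cell precursor markers were detected, with a summed level of 6137 to 6481 CPM (UMIs scaled to a total of 1e6 for each sample) with sh-XIAP and 6159 to 6401 CPM with sh-CTRL. Markers of T and NK, myeloid, erythroid and stromal or endothelial cells summed to at most 12.7, 21.95, 2.266 and 12.66 CPM in a library. CD28, KLRD1, ELANE, S100A8, ALAS2 and VWF had 0 UMIs. In these bulk samples a smaller share of cells with a transcript and less transcript per cell cannot be told apart.

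XIAP mRNA did not differ between the constructs beyond the spread of the samples. With EF1a/sh-XIAP its level was 11.5 and 9.52 CPM at day 10 and 10.4, 9.05 and 7.63 CPM at day 13. With EF1a/sh-CTRL it was 18.1, 3.81 and 9.06 CPM at day 10 and 9.94, 11 and 12.7 CPM at day 13. All 5 sh-XIAP values lay inside the range of the controls, whose extremes were both day 10 libraries. The means were 9.62 ± 1.45 CPM (SD, n = 5) and 10.8 ± 4.67 CPM (SD, n = 6), a log2 fold change of -0.06 (95% interval -0.69 to 0.56, adjusted p = 0.99 from limma) with an exact permutation p of 0.83 within days, two-sided, where 0.005 is the smallest p that the 200 arrangements allow. These values rested on 26 UMIs with sh-XIAP and 40 with sh-CTRL. The ratio of the pooled counts, scaled to the totals, was 0.811 with an exact binomial 95% interval of 0.475 to 1.36, which covers counting error only. By day, this ratio was 0.929 (0.354 to 2.2) at day 10 and 0.775 (0.387 to 1.54) at day 13. A level under 0.475 of the control lies outside the pooled interval, and smaller losses were not detectable at this depth. Protein was not measured here.

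**Figure D1:**
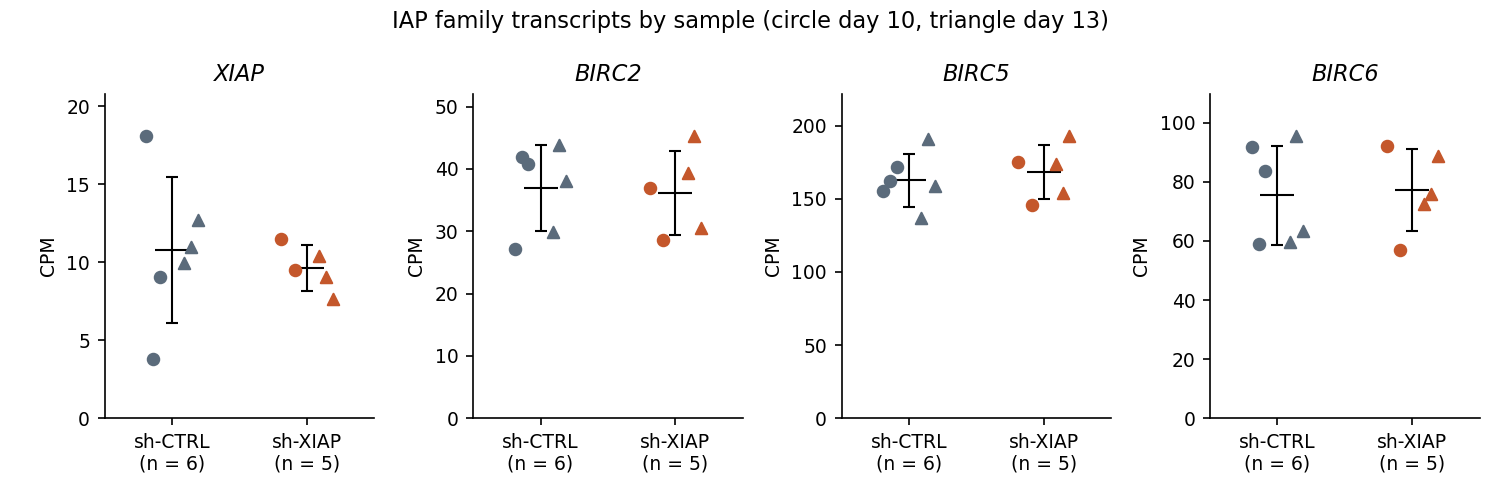
Levels of XIAP, BIRC2, BIRC5 and BIRC6 in CPM (linear axes from 0) in the 6 EF1a/sh-CTRL and 5 EF1a/sh-XIAP samples, with circles for day 10, triangles for day 13, and bars for mean ± SD. In every panel the ranges of the constructs overlap, and XIAP spans 3.81 to 18.1 CPM in the controls against 7.63 to 11.5 CPM with sh-XIAP.

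The other IAP genes likewise overlapped between the constructs. BIRC2, which encodes the ubiquitin ligase cIAP1, was at 36.9 and 28.6 CPM at day 10 and 39.4, 45.3 and 30.5 CPM at day 13 with sh-XIAP, and at 27.1 to 43.9 CPM (median 39.4) with sh-CTRL. Its log2 fold change was -0.04 (95% interval -0.41 to 0.33, adjusted p = 0.989 from limma), and a change beyond 1.5-fold in either direction lies outside this interval. BIRC3, which encodes cIAP2, had 0 UMIs in the 11 libraries and was not tested; at 6367133 UMIs in all, a count of 0 allows a level of up to 0.471 CPM, for counting error only. BIRC5 (survivin, a mitotic IAP) was at 146 to 193 CPM with sh-XIAP and 137 to 191 CPM with sh-CTRL (log2 fold change 0.04, 95% interval -0.16 to 0.23). BIRC6, a very large ubiquitin-conjugating IAP, was at 77.3 ± 14.0 and 75.5 ± 16.8 CPM. HTRA2, a mitochondrial protease that antagonizes XIAP, was at 67.9 ± 11.6 and 70.9 ± 3.94 CPM. NAIP, an IAP that senses bacterial ligands in the inflammasome, had the smallest p of these genes on 5 and 16 UMIs (log2 fold change -0.65, unadjusted p = 0.0417, adjusted p = 0.848 from limma). DIABLO, with 1 and 3 UMIs, was too low to test.

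Across the transcriptome, few genes passed the test between moderate KD and its control. Of 30667 gene identifiers 17697 exceeded 1 CPM in no fewer than 1/3 of the 11 libraries, 11545 of them protein-coding. With the threshold of the study's methods (adjusted p up to 0.25), 2 genes passed in limma (limma-trend on log2 CPM with day as a term), both protein-coding and both lower with sh-XIAP, namely FKBP1C and NELFCD. This is 0.0113% of all genes tested and 0.0173% of the protein-coding ones, and 0 genes were higher. At an unadjusted p under 0.05 there were 1040 genes (5.88%), among them 658 protein-coding ones, or 5.7%, with 258 higher (2.23%) and 400 lower (3.46%). The levels of the 2 constructs did not overlap for 54 protein-coding genes, or 0.468%, of which 25 (0.217%) were higher and 29 (0.251%) lower with sh-XIAP.

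The few calls depended on the test. The edgeR quasi-likelihood test called 16 genes (0.0904%), of which 6 were protein-coding (0.052%) and FKBP1C was the only one shared with limma-trend. Among the others, RPL39L, RPL39 and RPL32 encode ribosomal proteins, and TTC13 was at 25.2 against 10.6 CPM. Of the 16 calls 10 were processed pseudogenes, whose share among all genes tested is not given here. The exact permutation p within days was at most 0.05 for 2 of the 16. It was 0.26, 0.285 and 0.285 for RPL39L, RPL39 and RPL32. By limma-voom 2 genes passed (0.0113%; 0.00866% of protein-coding genes), RPS18 and the pseudogene RPL34P18, and 0 of them were shared with the other tests. For RPS18 the fitted log2 fold change was -0.22 by voom, while its mean level was 10250 CPM with sh-XIAP and 9910 CPM with sh-CTRL, the opposite order. DESeq2 called 0 genes, with 216 at an unadjusted p under 0.05. Fold changes were narrow: 90% of protein-coding genes lay between -0.43 and 0.38 on the log2 scale (median -0.0115), and 16 of 11545 lay beyond 2-fold.

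**Figure D2:**
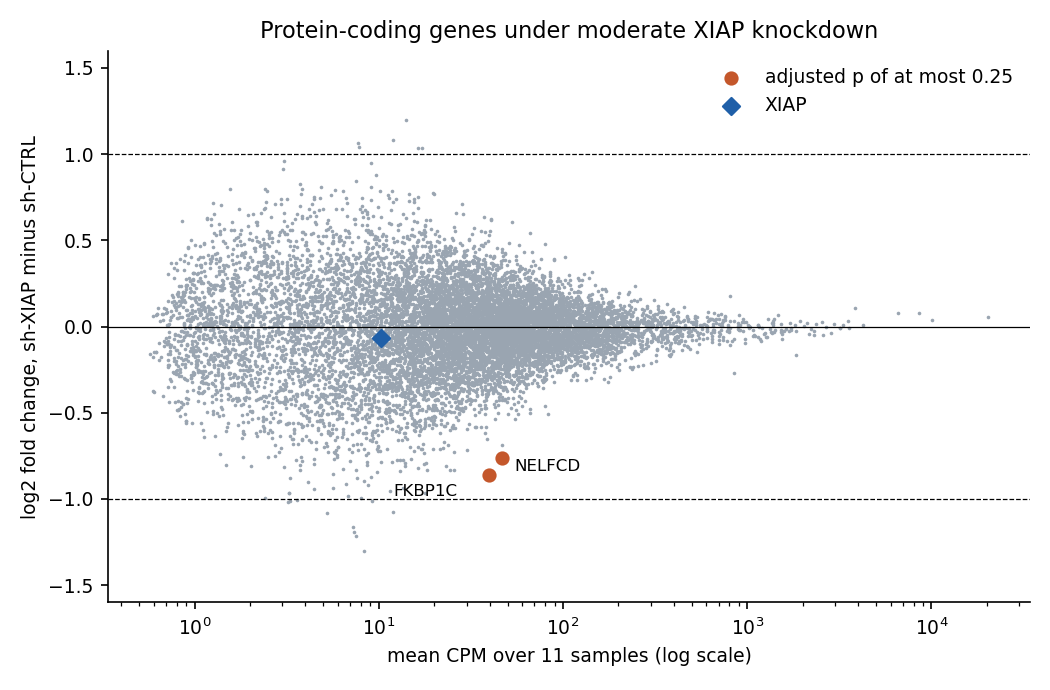
Fitted log2 fold change (EF1a/sh-XIAP minus EF1a/sh-CTRL) of each of the 11545 protein-coding genes against its mean CPM over 11 samples on a log axis, with dashed lines at 2-fold. The 2 genes past the adjusted p of 0.25, FKBP1C and NELFCD, lie near 40 and 47 CPM, XIAP lies near 0 on the vertical axis, and genes over 100 CPM stay close to the zero line.

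FKBP1C (ENSG00000198225, chromosome 6 from 63211446 to 63213024 in GENCODE 29), a close relative of the FK506-binding prolyl isomerase gene FKBP1A, was at 16.1 and 19.0 CPM at day 10 and 35.2, 25.3 and 43.9 CPM at day 13 with sh-XIAP. With sh-CTRL it was at 34 to 59.6 CPM (median 53.3). The groups overlapped, since day 13 replicates 1 and 3 of sh-XIAP reached the lowest controls, which were day 10 libraries, while within each day they did not. The means were 27.9 ± 11.5 CPM (SD, n = 5) and 49.3 ± 10.9 CPM (SD, n = 6), and FKBP1C fell by 0.86 on the log2 scale (95% interval -1.23 to -0.49, adjusted p = 0.186 from limma, exact permutation p = 0.005). The permutation p is not adjusted over genes, and it comes from the contrast that chose the gene. Of the 30-base words in FKBP1C transcripts 42.5% also occur in FKBP1A transcripts, so reads may have been divided between these genes and the level of FKBP1C is uncertain. FKBP1A itself, named for this reason after its values were seen, was at 171 ± 19.9 and 188 ± 19.9 CPM (log2 fold change -0.16, adjusted p = 0.887 from limma).

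NELFCD (ENSG00000101158, chromosome 20 from 58981208 to 58995133), a subunit of the negative elongation factor that holds RNA polymerase II near promoters, was at 32.3 and 19.0 CPM at day 10 and 31.1, 39.8 and 49.6 CPM at day 13 with sh-XIAP. With sh-CTRL it was at 51.7 to 63.3 CPM (median 57.4). All 5 sh-XIAP samples were below all 6 controls, with the deepest library the nearest to them. The means were 34.4 ± 11.3 CPM (SD, n = 5) and 57.3 ± 4.48 CPM (SD, n = 6), and NELFCD fell by 0.76 on the log2 scale (95% interval -1.11 to -0.42, adjusted p = 0.203 from limma, exact permutation p = 0.005). As for FKBP1C, this permutation p is unadjusted and from the contrast that chose the gene, so it adds no separate support. The calls depended on the setting: 9 of 27 other settings kept FKBP1C and 6 of 27 kept NELFCD past the threshold. The direction held in all 27, between -1.07 and -0.55 for FKBP1C and between -1.11 and -0.48 for NELFCD. These settings reuse libraries that chose the genes, so the constant direction adds no separate support.

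The protein-coding genes with the smallest p at a mean of at least 20 CPM, 8 in each direction, are described next. They were chosen by this contrast, so their values describe the tail of the distribution and support nothing. None of the 14 besides FKBP1C and NELFCD passed the threshold. Of the 16, 7 did not overlap between the constructs, beside 54 of 11545 protein-coding genes (0.468%). Choosing genes by a small p favours those without overlap.

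Among those with higher values, METTL22, a protein-lysine methyltransferase, was at 59.9, 66.7, 82.9, 59.7 and 60.1 CPM with sh-XIAP against 29.8 to 50.3 CPM (median 45.3) with sh-CTRL. Its log2 fold change was 0.60 (95% interval 0.29 to 0.92, adjusted p = 0.576 from limma). H2AFX, which encodes the histone variant that is phosphorylated around DNA breaks, was at 122, 111, 141, 107 and 114 CPM against 77.8 to 98.8 CPM (median 89.3). In both genes every sh-XIAP sample exceeded every control. COQ9, needed for coenzyme Q synthesis, was at 41.5, 34.9, 41.5, 29 and 31.5 CPM against 7.84 to 28.2 CPM (median 23.2), also without overlap. RXRB (a retinoid X receptor), FAM117A, TUBGCP6 (a gamma-tubulin complex subunit), COX19 (an assembly factor of cytochrome c oxidase) and PSMB9 (an immunoproteasome subunit) had log2 fold changes between 0.48 and 0.63, with overlapping samples and adjusted p between 0.576 and 0.640 in limma.

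Among those with lower values, ZDHHC6, a palmitoyltransferase of the endoplasmic reticulum, was at 41.5, 22.2, 31.1, 38 and 42.0 CPM against 48.8 to 69.6 CPM (median 55.9), a log2 fold change of -0.69 (95% interval -1.03 to -0.35, adjusted p = 0.385 from limma). GMPS, the GMP synthase of purine synthesis, was at 64.5, 66.7, 76.7, 63.4 and 56.3 CPM against 83.2 to 99.7 CPM (median 92.2). MIEN1, linked to cell migration, was at 34.6, 50.8, 39.4, 47.1 and 47.7 CPM against 56.6 to 69.7 CPM (median 65.9). In these 3 genes every sh-XIAP sample was below every control. PAN2, a poly(A) deadenylase subunit, was at 6.35 CPM in the shallowest library and at 25.3 to 45.3 CPM in the other 4, against 24.8 to 63.4 CPM in the controls (log2 fold change -0.86, adjusted p = 0.385 from limma). DCAF8, a substrate receptor of CUL4 ubiquitin ligases, had a log2 fold change of -0.51 with overlapping samples. RPL39L, a copy of the ribosomal protein gene RPL39, had a log2 fold change of -0.27 and an exact permutation p of 0.26, and its highest control, at 1430 CPM, was a single day 13 library. Of its 30-base words 5% occur in RPL39 transcripts.

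**Figure D3:**
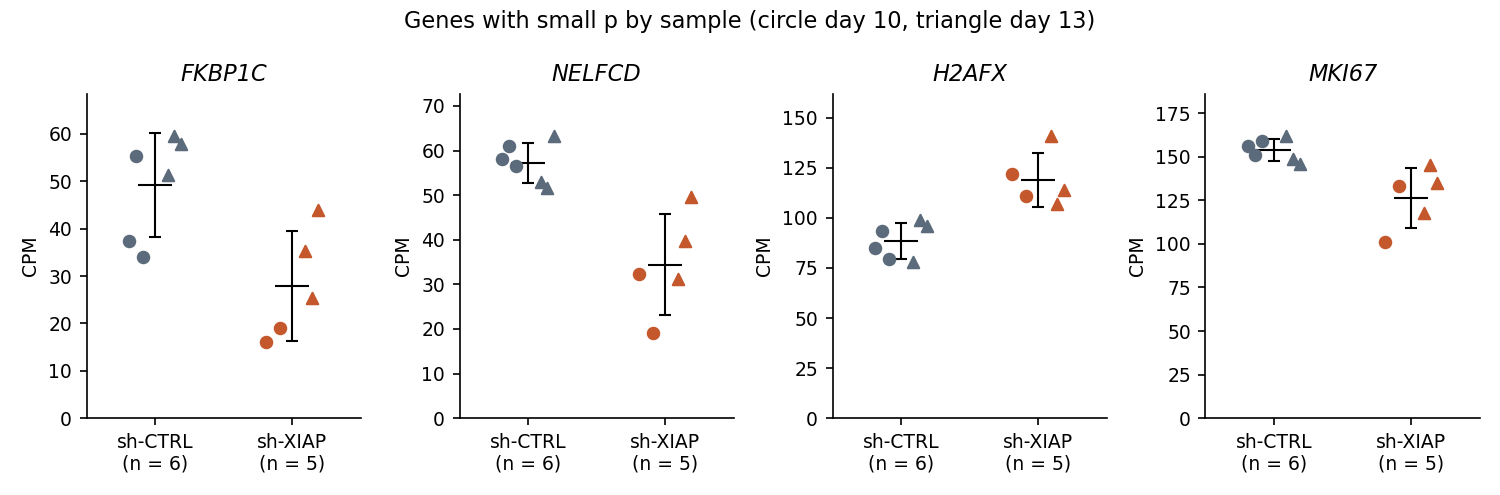
Levels in CPM (linear axes from 0) of FKBP1C, NELFCD, H2AFX and MKI67 in each of the 6 EF1a/sh-CTRL and 5 EF1a/sh-XIAP samples, with circles for day 10, triangles for day 13, and bars for mean ± SD. FKBP1C overlaps between the constructs, the other 3 do not, and FKBP1C and NELFCD are the genes that passed the adjusted p of 0.25.

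Samples that the choice of these genes did not use gave no common direction. At day 4, in 2 EF1a/sh-XIAP and 3 EF1a/sh-CTRL samples, 7 of the 16 genes had the same sign as at days 10 and 13, and under strong KD, where the SFFV promoter drives either hairpin and the same days were compared, this was also 7 of 16. FKBP1C had a log2 fold change of 0.31 both at day 4 and under strong KD. NELFCD had -0.29 at day 4 and 0.47 under strong KD. Over the 6777 protein-coding genes with a mean of at least 20 CPM, Pearson's r between the fold changes was 0.00239 for day 10 with day 13, -0.0226 for days 10 and 13 with day 4, and 0.00239 for moderate with strong KD, with the same sign in 49.7%, 49% and 48.6% of genes. These pairs of contrasts share no library; genes are not independent replicates, and the values are given as descriptions.

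The intervals bound what was not seen in these samples. They rest on the spread between the samples, which may be technical, so variation between cultures may not be included. A gene was counted as bounded within 2-fold when its whole 95% interval, not adjusted over genes, lay between -1 and 1 on the log2 scale. This held for 10516 of 11545 protein-coding genes (91.1%), and 5558 (48.1%) were bounded within 1.5-fold. The interval is for 1 effect fitted over days 10 and 13, so it does not bound the effect at either day. STXBP4, a low gene, had an interval of -0.94 to 0.44. Its log2 fold change was -1.69 at day 10 and 1.06 at day 13. The bounds followed expression level. All 1530 genes at 100 CPM or more were bounded within 2-fold and 1529 within 1.5-fold, with a median half-width of 0.20 on the log2 scale. Between 30 and 100 CPM these counts were 3798 and 3174 of 3807 genes, and between 10 and 30 CPM they were 2898 and 721 of 3183. At 10 CPM and above, 294 of 8520 genes had an interval that reached 2-fold. For the median gene at 100 CPM or more the farthest end of the interval was a 1.19-fold change, against 1.62-fold between 10 and 30 CPM.

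For genes under 30 CPM the bounds depended on the prior count and the fit, most strongly under 10 CPM. The fit added a prior count of 2 before taking logs, which pulls the fold changes of low genes towards 0 and narrows their intervals. With it 1141 of 1311 genes under 3 CPM were bounded within 2-fold, whereas with a prior count of 0.5 or by limma-voom 0 of 1311 were. Between 3 and 10 CPM the counts were 1149, 96 and 220 of 1714 genes. Between 10 and 30 CPM they were 2898, 2396 and 2585 of 3183 within 2-fold, and 721, 334 and 390 within 1.5-fold. At 10 CPM and above, the genes whose interval reached 2-fold numbered 294, 809 and 613 of 8520. Over all protein-coding genes 7807 (67.6%) remained within 2-fold with the smaller prior count and 8127 (70.4%) by voom. For low genes, among them XIAP at 10.2 CPM, a change of 2-fold is therefore not bounded independently of this choice.

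**Figure D4:**
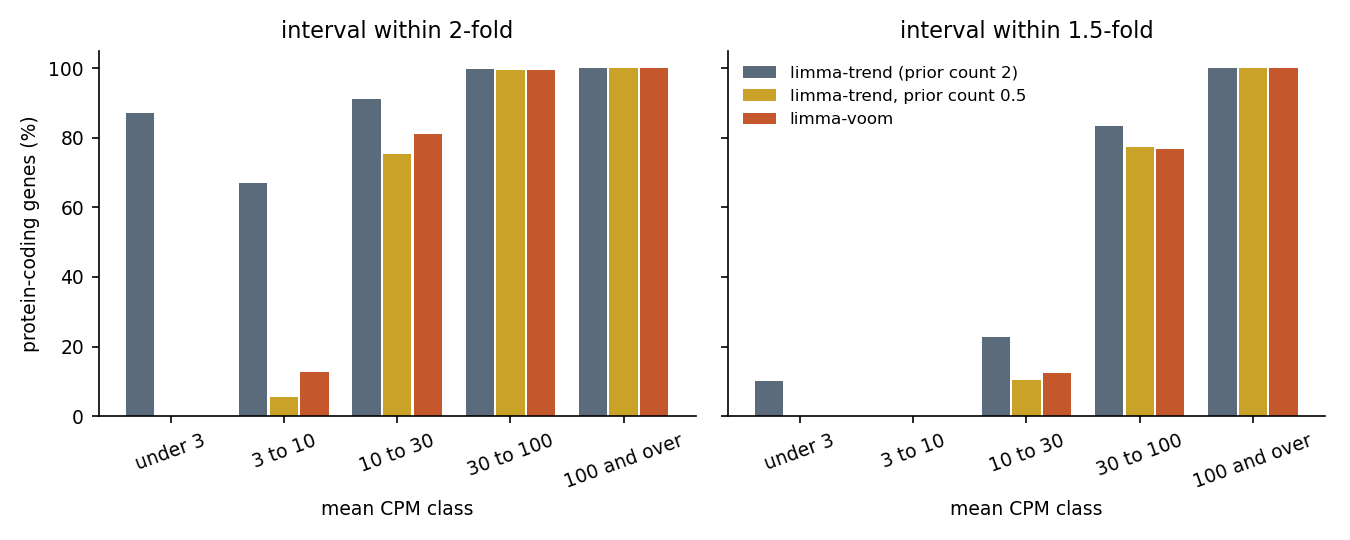
Percent of protein-coding genes whose whole 95% interval of the fold change lies within 2-fold (left) or 1.5-fold (right), by class of mean CPM, for limma-trend with a prior count of 2 or 0.5 and for limma-voom (bars from 0). The 3 fits give nearly the same share within 2-fold from 30 CPM upwards and part below it. Under 10 CPM only the prior count of 2 places most genes within 2-fold.

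By pathway, 30 gene lists held 0 genes called by limma-trend, whereas the edgeR calls RPL32 and RPL39 and the voom call RPS18 are ribosomal protein genes of these lists. The lists cover 722 genes, of which 682 were tested; 44 of these had an unadjusted p under 0.05, 14 higher and 30 lower, beside 658 of 11545 protein-coding genes (5.7%; 258 higher, 400 lower). The summed level of the tested members overlapped between the constructs in all 30 lists. Counts of list members bounded within 2-fold use the prior count of 2, with which 91.1% of all protein-coding genes were bounded. That share was 67.6% with a prior count of 0.5 and 70.4% by voom, and the lists were not recounted with those fits.

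Genes of the apoptotic machinery lay on both sides of 0. Of the 15 genes for caspases and the apoptosome, 7 had positive and 8 negative fold changes (median -0.050, beside -0.0115 over protein-coding genes), 13 were bounded within 2-fold, and the summed level was 949.6 ± 57.8 CPM with sh-XIAP and 958.5 ± 40.5 CPM with sh-CTRL. CASP9 had 26 and 30 UMIs, and was not bounded within 1.5-fold (log2 fold change -0.11, 95% interval -0.78 to 0.55). PARP1, a caspase substrate, was at 331 ± 10.7 and 344 ± 20.7 CPM. DFFB, the caspase-activated DNase, had the smallest p of the list on 30 and 22 UMIs (log2 fold change 0.67, unadjusted p = 0.0396, adjusted p = 0.848 from limma).

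The 12 pro-apoptotic BCL2 family genes tested had a median log2 fold change of -0.0017 and the 5 anti-apoptotic genes one of 0.076, with 0 of either at an unadjusted p under 0.05 and 11 and 5 bounded within 2-fold. MCL1, an anti-apoptotic member with a short-lived protein, was at 136 ± 11.5 and 147 ± 16.3 CPM, and BCL2 at 67.8 ± 4.89 and 65.9 ± 14.5 CPM. PMAIP1, which encodes the pro-apoptotic protein NOXA, was at 160 ± 13.2 and 163 ± 22.7 CPM (log2 fold change -0.0084, 95% interval -0.21 to 0.19). All 15 tested genes of the death receptors and the RIPK1 complex were bounded within 2-fold, with a median of 0.085. RIPK1, the kinase of that complex, was at 20.4 ± 6.97 and 21.6 ± 5.44 CPM.

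The 17 tested NF-kB targets had the highest median of the 30 lists, 0.11, with 13 positive and 4 negative values, 0 at an unadjusted p under 0.05, and all bounded within 2-fold. Their summed level was 472.5 to 612.9 CPM with sh-XIAP and 490.0 to 574.7 CPM with sh-CTRL. TNFAIP3 (A20, a deubiquitinase that limits NF-kB) was at 142 ± 33.0 and 147 ± 30.5 CPM, and NFKBIA (the inhibitor IkBa) at 52.9 ± 10.7 and 47.6 ± 12.9 CPM. Among 11 XIAP signalling partners the median was -0.064 and all were bounded within 2-fold. COMMD1, a copper regulator that XIAP ubiquitinates, had the smallest p (47.1 ± 6.88 and 37.5 ± 5.29 CPM, adjusted p = 0.877 from limma). Of 25 p53 targets, CDKN1A (the cell cycle inhibitor p21) was at 378 ± 34.6 and 369 ± 27.2 CPM, and MDM2, the p53 ubiquitin ligase, at 148 ± 15.9 and 173 ± 13.1 CPM (log2 fold change -0.22, unadjusted p = 0.025, adjusted p = 0.83 from limma). The 34 interferon-stimulated genes had a median of -0.038 and 29 were bounded within 2-fold, with 1 higher (PSMB9) and 3 lower (IFITM2 and ISG20 among them) at an unadjusted p under 0.05. These 4 are 11.8% of the list, beside 5.7% of all protein-coding genes tested.

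Among proliferation genes, the 32 genes of S phase and DNA replication and the 32 of G2 and mitosis were all bounded within 2-fold, with medians of -0.038 and -0.025. MKI67, the Ki-67 proliferation antigen, was at 101, 133, 118, 145 and 135 CPM with sh-XIAP and at 146 to 162 CPM (median 153) with sh-CTRL. All 5 sh-XIAP values were lower than all controls by a narrow margin. Its log2 fold change was -0.30 (95% interval -0.50 to -0.09) with an adjusted p of 0.674 in limma, and -0.05 under strong KD. TOP2A, a topoisomerase of dividing cells, was at 321 ± 24.5 and 334 ± 42.3 CPM, and TYMS, the thymidylate synthase, at 518 ± 20.9 and 522 ± 38.2 CPM. The 19 tested genes of tubulins and vincristine response had a median of -0.0024, and TUBA1B, an alpha-tubulin gene, was at 1394 ± 51.6 and 1377 ± 32.0 CPM (log2 fold change 0.01, 95% interval -0.09 to 0.11).

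Stress response and protein quality control genes lay close to 0. The 33 genes of the ATF4 and CHOP response and the 20 endoplasmic reticulum chaperones were all bounded within 2-fold, with medians of -0.037 and -0.0074. ATF4, the transcription factor of the amino acid response, was at 603 ± 55.5 and 603 ± 29.4 CPM. GARS, a glycyl-tRNA synthetase, was at 99.1, 88.9, 116, 110 and 96.4 CPM with sh-XIAP and at 107 to 135 CPM (median 124) with sh-CTRL, with overlap and an adjusted p of 0.791 in limma. Among 19 heat shock protein genes, of which 18 were bounded within 2-fold, HSPA8, the constitutive HSP70, was at 1397 ± 45.3 and 1366 ± 50.4 CPM (log2 fold change 0.03, 95% interval -0.07 to 0.13). All 37 proteasome genes were bounded within 2-fold, as were 21 of 22 antioxidant and thioredoxin genes, and PRDX1, a peroxiredoxin, was at 1502 ± 70.4 and 1533 ± 85.0 CPM.

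Metabolic genes held the largest list. All 68 nuclear-encoded respiratory chain genes were bounded within 2-fold and 64 within 1.5-fold (median -0.019), with 2 higher and 5 lower at an unadjusted p under 0.05. These 7 are 10.3% of the list, beside 5.7% of all protein-coding genes tested. NDUFA4, a cytochrome c oxidase subunit, was at 131, 136, 164, 161 and 148 CPM with sh-XIAP and at 167 to 202 CPM (median 181) with sh-CTRL. Every sh-XIAP sample was lower, and the log2 fold change of -0.31 (95% interval -0.50 to -0.11) had an adjusted p of 0.640 in limma. The 13 mitochondrially encoded genes lay between -0.059 and 0.11. The 21 glycolysis and 23 cholesterol synthesis genes were all bounded within 2-fold. GAPDH of glycolysis was at 2547 ± 94.3 and 2622 ± 36.7 CPM, and FDPS of isoprenoid synthesis at 311 ± 13.8 and 309 ± 23.4 CPM.

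Among 20 B-lineage transcription factors the median was 0.013, 18 were bounded within 2-fold, and 2 (ETS1 and SPIB) were lower at an unadjusted p under 0.05. These 2 are 10% of the list, beside 5.7% of all protein-coding genes tested. TCF3, which encodes the E2A proteins, was at 425 ± 36.6 and 424 ± 30.6 CPM. ETS1, an ETS family factor of lymphocytes, was at 4.61, 12.7, 12.4, 12.7 and 20 CPM with sh-XIAP against 15.5 to 28.6 CPM (median 24.2), on 40 and 80 UMIs. Its 1 overlapping value came from the deepest library, and its adjusted p was 0.660 in limma (log2 fold change -0.83, 95% interval -1.36 to -0.31). The 14 pre-B-cell receptor and recombination genes were all bounded within 2-fold. IGLL1, a surrogate light chain gene, was at 1514 ± 81.5 and 1536 ± 52.8 CPM. MME (CD10) was at 688 ± 16 and 666 ± 21.4 CPM, and CD38, a surface ectoenzyme, at 93.2 ± 11.4 and 78.9 ± 11.5 CPM (adjusted p = 0.861 from limma). SPIB, an ETS family factor of B cells, was at 4.46 ± 1.76 and 9.42 ± 3.0 CPM on 12 and 33 UMIs (log2 fold change -0.73, adjusted p = 0.834 from limma). Of 18 leukaemia surface antigens 16 were bounded within 2-fold, and of 14 genes of HLA class II and CD74 11 were. HLA-DQB1 and HLA-DPA1, chains of HLA class II, were lower at an unadjusted p under 0.05, with log2 fold changes of -0.57 and -0.21 and adjusted p of 0.821 and 0.834 in limma. They are 14.3% of their list, beside the same 5.7%. Of antigen presentation genes with the highest levels, B2M was at 1819 ± 46.2 and 1800 ± 48.3 CPM and HLA-DRA at 728 ± 38.9 and 726 ± 42.1 CPM.

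For growth and translation, the 25 MYC and nucleolar genes had a median of 0.021 and the 32 translation initiation factors one of -0.013, and all were bounded within 2-fold. NPM1, an abundant nucleolar protein, was at 949 ± 22.9 and 929 ± 24.7 CPM. PES1, a ribosome assembly factor, was at 87.3 ± 18.6 and 66.8 ± 11.6 CPM (adjusted p = 0.674 from limma). Of 48 large-subunit and 33 small-subunit ribosomal protein genes, 47 and 33 were bounded within 2-fold, with medians of -0.020 and -0.0046, and many of these genes have pseudogene copies with which reads may be exchanged.

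**Figure D5:**
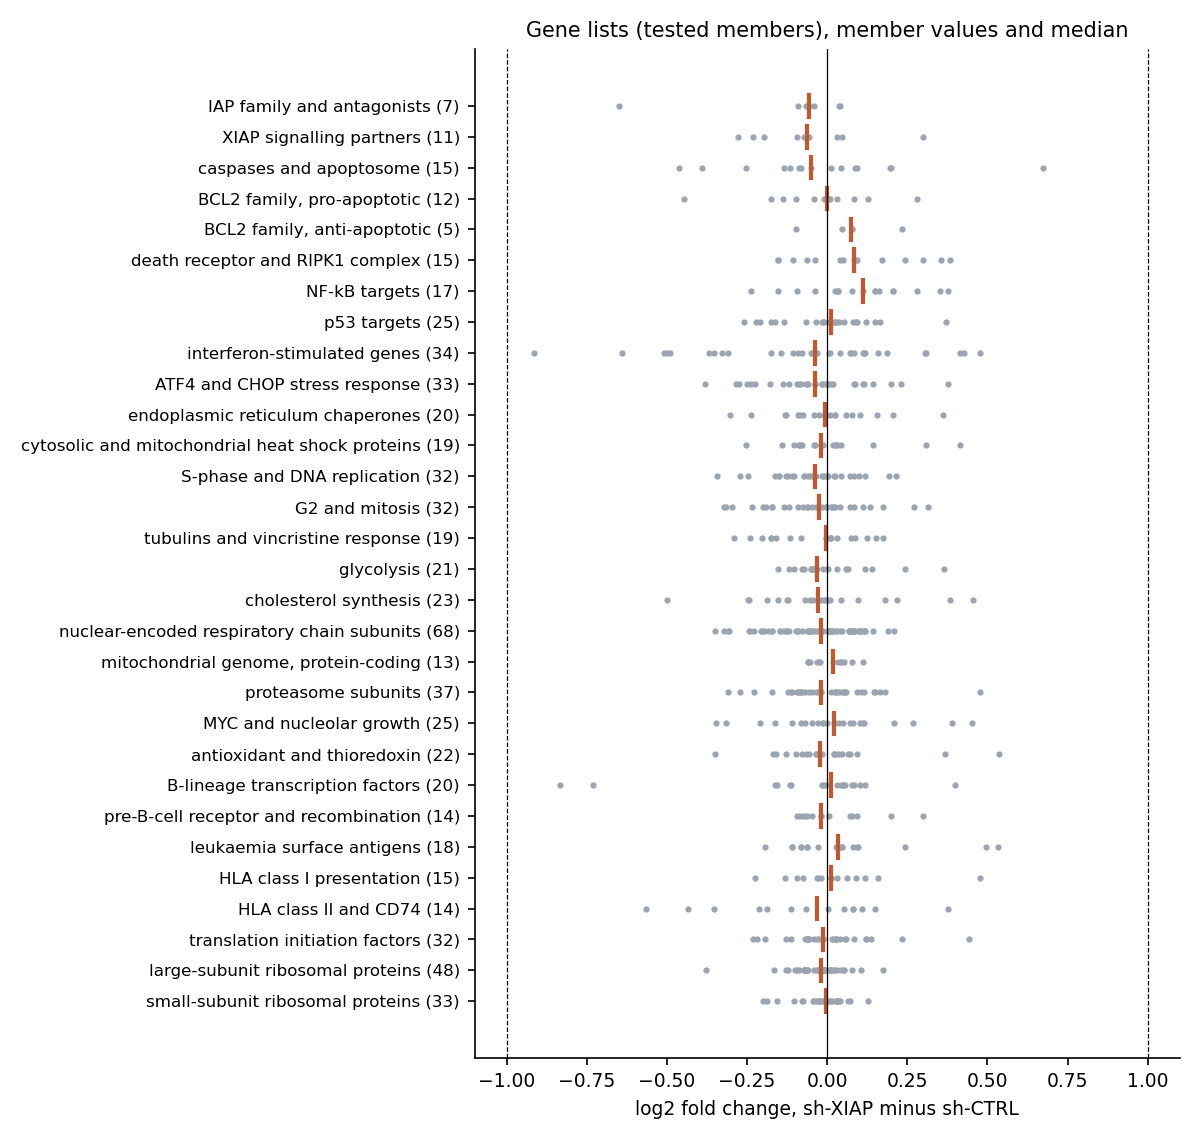
Fitted log2 fold change (EF1a/sh-XIAP minus EF1a/sh-CTRL) of the tested members of 30 gene lists (grey points) with the median of each list (red bar); the number tested is in brackets and dashed lines mark 2-fold. All medians lie between -0.064 and 0.11, and every member lies within 2-fold by its point value.

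Genes that either hairpin could pair with by its seed were compared without a test. The 7-base site opposite the sh-XIAP.1 seed, TAACTGA on the sense strand, occurs in an annotated 3′ UTR of 13.8% of 14771 genes, and that of the eGFP hairpin, TATATCA, in 12.5%. The median log2 fold change was -0.0050 for 1179 tested genes with the sh-XIAP.1 site alone, -0.013 for 1010 with the eGFP site alone, -0.025 for 442 with both and -0.012 for 8841 with neither. Of genes with the sh-XIAP.1 site alone 50.8% had negative fold changes, beside 52.4% of those with neither. A match is a run of letters, not evidence of pairing.

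The effect of sh-XIAP was then compared between the days. The interaction of construct and day passed the adjusted p of 0.25 in limma for 42 genes (0.237% of those tested), 16 with a more positive and 26 with a more negative effect at day 13. Of the 42, 20 were protein-coding (0.173% of those tested) and 21 were pseudogenes, and 15 carry symbols of ribosomal protein genes or their copies, all 15 with a more negative effect at day 13. Reads may be exchanged between these genes and their copies, so the 15 are not separate observations. The share of pseudogenes and of ribosomal symbols among all genes tested is not given here. RPL34, a large-subunit gene, was at 22000 and 22000 CPM at day 10 and at 22500, 20500 and 16800 CPM at day 13 with sh-XIAP. With sh-CTRL it was at 17700, 18900 and 19300 CPM at day 10 and at 20300, 20200 and 22700 CPM at day 13. The lowest values of either construct came from the deepest library of each, EF1a/sh-XIAP day 13 replicate 3 with 1048088 UMIs and EF1a/sh-CTRL day 10 replicate 1 with 774669 UMIs, and the part of depth in the result was not tested. The change between days was -0.36 on the log2 scale (SE 0.0627, adjusted p = 0.000202 from limma), and for RPL29 it was -0.37 (SE 0.0639, adjusted p = 0.000202).

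Low genes led in the other direction. STXBP4, a syntaxin-binding protein gene, had 0 UMIs in both sh-XIAP libraries of day 10 and 4 to 6 in the controls of that day, against 2 to 8 and 1 to 2 UMIs at day 13. BTBD10 was at 9.22 and 3.17 CPM at day 10 and 29, 21.7 and 39.1 CPM at day 13 with sh-XIAP, against 21.5 to 34.9 CPM in the controls. It stood low only in the day 10 libraries with sh-XIAP, which are those apart in the component analysis and also the shallowest. The change between days for BTBD10 was 2.06 (adjusted p = 0.0276 from limma). Leaving out EF1a/sh-XIAP day 10 replicate 1 raised the count of genes from 42 to 347, in a fit where the 1 sh-XIAP library left at day 10 is the shallowest and is assumed to vary like the other groups, and leaving out EF1a/sh-XIAP day 13 replicate 3 lowered it to 19. Without EF1a/sh-CTRL day 10 replicate 1 or EF1a/sh-CTRL day 13 replicate 3 it was 21 or 22.

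At day 4 limma called 0 of 18803 genes, with 680 at an unadjusted p under 0.05, and edgeR called 0 with 884; 2 against 3 samples entered this fit. XIAP had 18 UMIs with EF1a/sh-XIAP and 25 with EF1a/sh-CTRL at day 4, a pooled ratio of 1.07 (exact binomial 95% interval 0.551 to 2.04, counting error only). The protein-coding gene with the smallest p was LIN52, a subunit of the DREAM complex that represses cell cycle genes. Its log2 fold change was -1.31 at day 4 (adjusted p = 0.993 from limma) and 0.21 at days 10 and 13.

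Moderate KD was last set against strong KD in the 21 samples of days 10 and 13, by the difference of the 2 effects. In limma 1 of 17683 genes (0.00566%; 0.00865% of protein-coding genes) passed, and 1032 had an unadjusted p under 0.05. It was SLC25A33, a mitochondrial pyrimidine nucleotide carrier, with an effect of -0.83 under moderate KD and 0.94 under strong KD, a difference of -1.75 (SE 0.360, adjusted p = 0.123 from limma). With EF1a/sh-XIAP it was at 16.1, 3.17, 22.8, 16.3 and 32.4 CPM against 22.7 to 38.7 CPM (median 28.4) with EF1a/sh-CTRL, and the lowest value came from the shallowest library, on 1 UMI. The count was 0 without any 1 of 5 libraries: EF1a/sh-XIAP day 10 replicate 2, SFFV/sh-XIAP day 10 replicate 1, EF1a/sh-CTRL day 13 replicate 2, and SFFV/sh-CTRL day 13 replicates 1 and 2. Without SFFV/sh-XIAP day 10 replicate 2 it was 27. NELFCD had a difference of -1.19 (adjusted p = 0.261 from limma) and XIAP one of 0.06 (adjusted p = 0.990).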

How the data were processed

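The data were 1 deposited table of unnormalized UMI counts (whole numbers), with 30667 Ensembl identifiers as rows. The submitters' processing notes name STAR 2.6.0a and human and mouse builds; for the counter and annotation, the sources used here name none. Names, types and positions were taken from GENCODE 29 (GRCh38), which matched 29928 identifiers. CPM were computed from each sample's total of UMIs. The main test was limma-trend (limma 3.58.1, R 4.3.3) on edgeR 4.0.16 log2 CPM (TMM, prior count 2), two-sided, with day as a term and Benjamini-Hochberg adjustment over all genes tested; fold changes of low genes are understated on this scale. DESeq2 1.42.0, edgeR's quasi-likelihood test and limma-voom were alternatives. Single values were tested by exact permutation within days. At totals of 315055 to 1048088 UMIs, 1 UMI is worth about 1 to 3 CPM. The fit was tested on simulated counts. No 2 samples of the same construct and day held copied counts: chi-square per gene was 1.08 to 1.5 over 10 pairs. This check cannot tell libraries of the same culture from libraries of separate cultures.

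The members and gene lists were chosen with earlier results of these data known. Named genes were XIAP, BIRC2 and BIRC3, the 8 protein-coding genes of smallest p on each side at a mean of at least 20 CPM, every called protein-coding gene, the member of each list with the smallest p and that with the highest CPM, the 2 of smallest p on each side in the day 4, day interaction and strong KD comparisons, and cell markers. CASP9, BCL2, BIRC6, HTRA2, DIABLO, RIPK1, NFKBIA, IFITM2, ISG20, SPIB, HLA-DPA1, FKBP1A and the genes called by edgeR or voom alone were named after their values were seen. Only some of the genes under the rule are described, and some are not reported here.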

Additional observations from a re-analysis of the deposited data

Results flagged for a closer look

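Beyond the day interaction, several samples lay far from the others of their construct, by the ratio of the gap to the range at the 95% level; 8 of 108 groups tested did so, and chance alone gives about 1 in 20. On principal component 1, EF1a/sh-XIAP day 10 replicate 2 scored 67.4 (the nearest of the other 4 was -4.65) and EF1a/sh-CTRL day 13 replicate 3 scored -8.75 (nearest -6.94). On component 2, EF1a/sh-XIAP day 10 replicate 1 scored 56.4 (nearest -0.31). RXRB was low in EF1a/sh-XIAP day 13 replicate 3, at 67.7 CPM against 80.6 CPM in the nearest sample, and COQ9 was low in EF1a/sh-CTRL day 13 replicate 2, at 7.84 against 21.9 CPM. The summed level of XIAP signalling partners was 745 CPM in EF1a/sh-CTRL day 13 replicate 3 (nearest 788 CPM), that of caspases and apoptosome 851 CPM in EF1a/sh-XIAP day 10 replicate 2 (nearest 954 CPM), and that of HLA class II and CD74 2080 CPM in EF1a/sh-XIAP day 10 replicate 1 (nearest 2220 CPM).

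By the test of the difference between days 10 and 13, 42 genes passed the threshold in limma, among them RPL34 (change of log2 effect -0.36), RPL29 (-0.37), STXBP4 (2.84) and BTBD10 (2.06). By the test of the difference between moderate and strong KD, SLC25A33 passed (-1.75).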

How the results depend on the processing

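The count of genes called under moderate KD (2, both protein-coding) moved by more than 1.5 times in most settings. It was 16 by edgeR (6 protein-coding), and 56 at day 10 alone (26 protein-coding), where the sh-XIAP libraries were the shallowest. It was 1 with DESeq2 size factors or a prior count of 0.5 (1 protein-coding each), and 2 by voom (1 protein-coding). It was 0, protein-coding genes included, by DESeq2, without a filter, with filterByExpr, without the day term, with all 21 samples, at day 13 alone, with both sh-CTRL constructs as control, on thinned counts, with protein-coding genes only, and at adjusted p of 0.05 or 0.1. In the 16 settings with 0 calls at the threshold of 0.25, those that left out a sample included, between 216 (DESeq2) and 1307 genes (no filter) had an unadjusted p under 0.05. Leaving out 1 sample gave 0 to 48 genes (0 to 25 protein-coding): 0 without EF1a/sh-CTRL day 10 replicate 1 or 2, EF1a/sh-CTRL day 13 replicate 2, EF1a/sh-XIAP day 10 replicate 2 or EF1a/sh-XIAP day 13 replicate 1 or 2; 1 without EF1a/sh-CTRL day 10 replicate 3; 3 without EF1a/sh-CTRL day 13 replicate 1; 10 without EF1a/sh-XIAP day 10 replicate 1; 20 without EF1a/sh-CTRL day 13 replicate 3; and 48 (27 higher, 21 lower) without EF1a/sh-XIAP day 13 replicate 3, the deepest library. The cause was not tested. The correlation of residuals between constructs was -0.0138 to 0.00845 for 5 same-numbered pairs and -0.0156 to 0.0156 for 10 others. The residuals were taken from the mean of each construct and day, with few samples in each, so these values cannot exclude pairing. With a replicate block 0 genes were called, 902 had an unadjusted p under 0.05, and 10329 protein-coding genes were bounded within 2-fold.

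The number bounded within 2-fold (10516) was 6676 at day 10 alone and 9801 to 10218 when 1 sample was left out. XIAP kept an adjusted p of at least 0.96 in 26 alternatives; its log2 fold change was positive at day 10 alone (0.15) and without EF1a/sh-CTRL day 10 replicate 1 (0.068), and ranged from -0.24 to 0.068 over the samples left out. BIRC2 ranged from -0.11 to 0.034 over the samples left out and turned positive at day 13 alone (0.020) and without EF1a/sh-CTRL day 10 replicate 2 (0.0061) or 3 (0.0031), EF1a/sh-XIAP day 10 replicate 2 (0.034), EF1a/sh-CTRL day 13 replicate 2 (0.0027) or EF1a/sh-XIAP day 13 replicate 3 (0.023). RPS18 was reversed by voom (-0.22). Of 810 list medians recomputed, 794 moved by less than the spread between samples. Another scaling moved the median of all genes by at most 0.0118.

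Of the other comparisons, day 4 gave 0 to 13 genes with 1 sample left out (an arm left with 1 sample was assumed to vary like the other), the day interaction 45 by edgeR, 38 by voom and 19 to 347 with 1 sample left out (voom and the samples left out were chosen after seeing the data), and moderate minus strong KD 23 by edgeR and 0 to 27 with 1 sample left out.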
